A study of Drosophila melanogaster with 4 samples.

Results

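The 429 peaks described here are those that an Atonal ChIP-seq peak list places on the centromere-proximal end of chromosome arm 3L of Drosophila melanogaster. They were taken by position alone, as every 3L peak whose listed start is 22500000 or higher (22.5 Mb), out of 780 peaks on 3L and 6065 in the whole list. The limit was set with the density of peaks in this list already known, so the gathering of peaks beyond it is a description and the tests of density below are not independent support for it. They are compared with the 351 peaks on the rest of 3L and with the 836 peaks on 3LHet, a separate scaffold of heterochromatic sequence assigned to the same arm. Sequence names ending in Het belong to Release 5 of the fly genome, and positions are given as in the list, counted from 1. No genome or annotation of that release was used, so positions stand in for names, and neither genes nor sequences are given.

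The libraries came from eye imaginal discs of third-instar (L3) larvae of the knock-in IMAGO line ato:GFP, in which the endogenous Atonal protein carries green fluorescent protein. There were 2 ChIP libraries, precipitated with anti-GFP, and 2 input libraries of sonicated chromatin that was not precipitated. All 4 came from the same genotype, tissue and stage, kept without treatment, and the labels give no library from animals that lack the tag. The list has no value for any single library, so none of the values below has an error between replicates, sequencing depth per library is unknown, and every interval covers only the count of listed peaks.

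Atonal is a proneural basic helix-loop-helix transcription factor that binds E-box sequences with its partner Daughterless and selects the founder photoreceptor, R8, in the eye disc. In flies the chromosome arms end, beside the centromere, in pericentric heterochromatin, which is rich in transposable elements and satellite repeats and is packaged with methylated histone H3 and the protein HP1. Short reads from repeated sequence cannot always be placed at 1 position, and copy number can differ between an assembly and the animals studied.

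The rise in peak density began after an empty interval. In bins of 100 kb, the 190 bins between 1 Mb and 20 Mb held a median of 1 peak, 34.7% of them held none, and their 95th percentile was 6.1 peaks. The last peak before the limit, 22098519 to 22098644 (126 bp, 1.56-fold), and the first beyond it, 22737258 to 22737333 (76 bp, 1.79-fold), were separated by 638613 bp without a listed peak. This is long but not the longest interval on the arm, since 1 gap of 672816 bp lay within the rest of 3L.

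A pair of small groups of peaks came first, followed by another empty interval. The bins starting at 22.7 and 22.8 Mb held 13 and 9 peaks, and the bin from 22.9 to 23 Mb held none. The longest gap within the stretch ran for 223239 bp from 22812446 to 23035686. From 23 Mb onwards each of the 15 full bins was above the 95th percentile of the interior, with 8 to 54 peaks and a median of 25, and 13 of the 15 were above the fullest interior bin, which held 16. These bins and the last partial bin held 407 of the 429 peaks (94.9%). The start at 23 Mb depended on the bin size. With 50 kb bins the last bin at or below its limit of 3 peaks was an empty one from 23.7 to 23.75 Mb, and 2 earlier bins, starting at 23.2 and 23.3 Mb, held 3 peaks each.

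**Figure D1:**
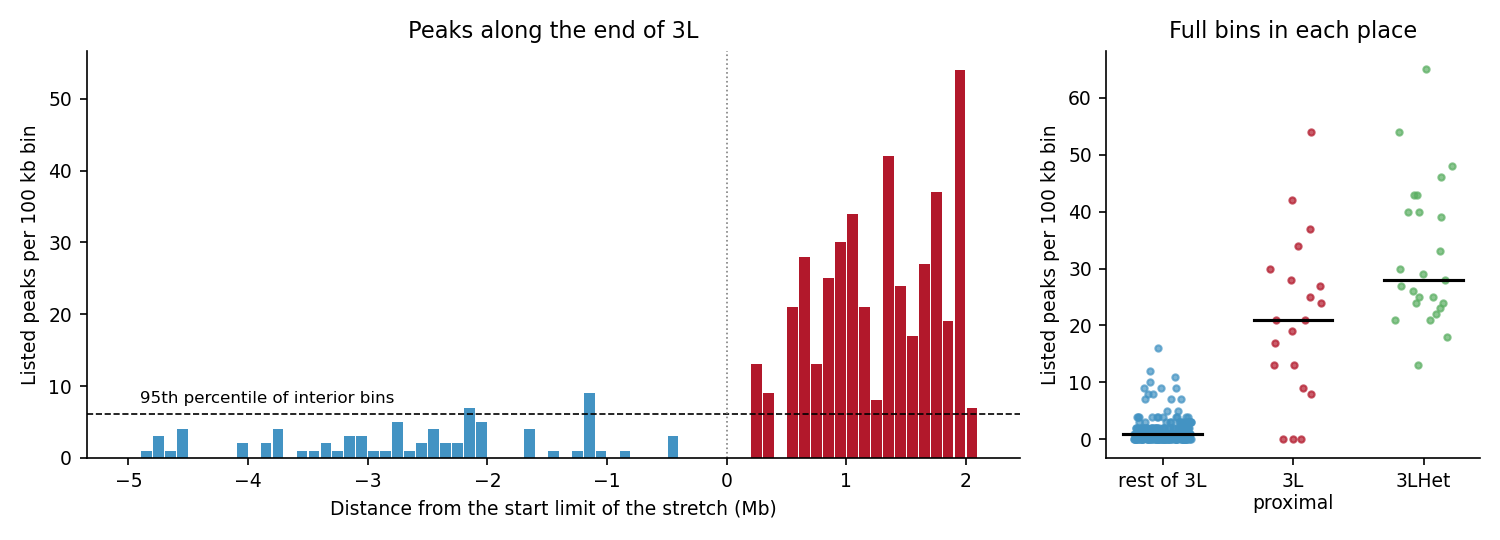
Left, listed peaks in each 100 kb bin (y axis) against distance from the start limit of 22.5 Mb in Mb (x axis), blue below the limit and red beyond it, with the 95th percentile of the bins between 1 and 20 Mb (6.1) as a dashed line; the last red bin is cut short by the last peak. Right, the same counts for every full bin of the 3 places, each point 1 bin and the black line the median. The bins beyond the second gap hold 8 to 54 peaks, whereas the bins of 3LHet hold 13 to 65.

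Counts per 0.5 Mb increased along the stretch. There were 22 peaks between 22.5 and 23 Mb (44.0 per Mb), 117 in the next 0.5 Mb (234 per Mb), 129 between 23.5 and 24 Mb (258 per Mb) and 154 between 24 and 24.5 Mb (308 per Mb). The 0.5 Mb just outside the limit held 3. The fullest bins of 100 kb were those starting at 24.4 Mb with 54 peaks, at 23.8 Mb with 42 and at 24.2 Mb with 37. The bin starting at 23.7 Mb held only 8, and the second-longest gap, 68750 bp from 23688722 to 23757473, lay across its start. The third, 41891 bp, ran from 23297545 to 23339437.

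Over its length up to the last peak, at 24513239, the stretch held 213 peaks per Mb. The rest of 3L held 15.6 per Mb, a ratio of 13.7 (95% interval 11.8 to 15.8, two-sided exact binomial test, p = 7.12e-248). The limit was set with this density known, so the test is not independent support. It also counts neighbouring peaks as independent, as do the density tests that follow. 3LHet held 327 per Mb, so that the stretch was 0.651 times as dense (0.578 to 0.732, exact binomial test, p = 1.87e-13). With the stretch started at 23 Mb the ratio to 3LHet was 0.822 (0.728 to 0.926, exact binomial test, p = 0.00112). The rise in density was placed at 23 Mb from these same counts, so this test is not independent support either. Listed peaks covered 3.43% of the stretch, 0.211% of the rest of 3L and 4.81% of 3LHet. The median gap between neighbouring peaks was 1048 bp in the stretch, 892 bp on 3LHet and 23233 bp on the rest of 3L.

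The control level behind the peaks was higher in the stretch than on the rest of 3L. Each peak's deposited fold and p-value together imply a ChIP level and the control level it was compared with, both in reads piled up at a position on the scale of the peak caller. The lowest control level in the list, a floor shared by 320 peaks, serves here as the unit. In the stretch the median control level was 2.40 times the lowest, with quartiles of 1.76 and 3.05. On 3LHet it was 2.37 times, and on the rest of 3L 1.28 times. Within the stretch the median did not increase with density. Between 22.5 and 23 Mb, where peaks were sparsest, it was 2.93 times the lowest. In the following steps of 0.5 Mb it was 2.46, 2.37 and 2.35 times. A level of at least 1.5 times the lowest lay behind 367 of the 429 peaks (85.5%, Clopper-Pearson 95% interval 81.9% to 88.7%), against 74.1% in the whole list. On the rest of 3L it lay behind 149 of 351 peaks (42.5%), a difference that passed Fisher's exact test (adjusted p = 7.76e-37, odds ratio 8.02). On 3LHet it lay behind 712 of 836 (85.2%, 82.6% to 87.5%), a difference that was not detectable by that exact test (adjusted p = 0.933, odds ratio 1.03). These tests of shares, and those that follow, count neighbouring peaks as independent, although neighbours can share a control level. Of the 429 peaks, 3 were at the lowest level (within 0.1%), against 61 of the 351 on the rest of 3L. Peaks whose control was below 1.5 times the lowest were still 3.43 times as dense in the stretch as on the rest of 3L (62 and 202 peaks, 95% interval 2.54 to 4.58, exact binomial test, p = 3.82e-14). That ratio divides by whole lengths, because the length lying at each control level is unknown.

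**Figure D2:**
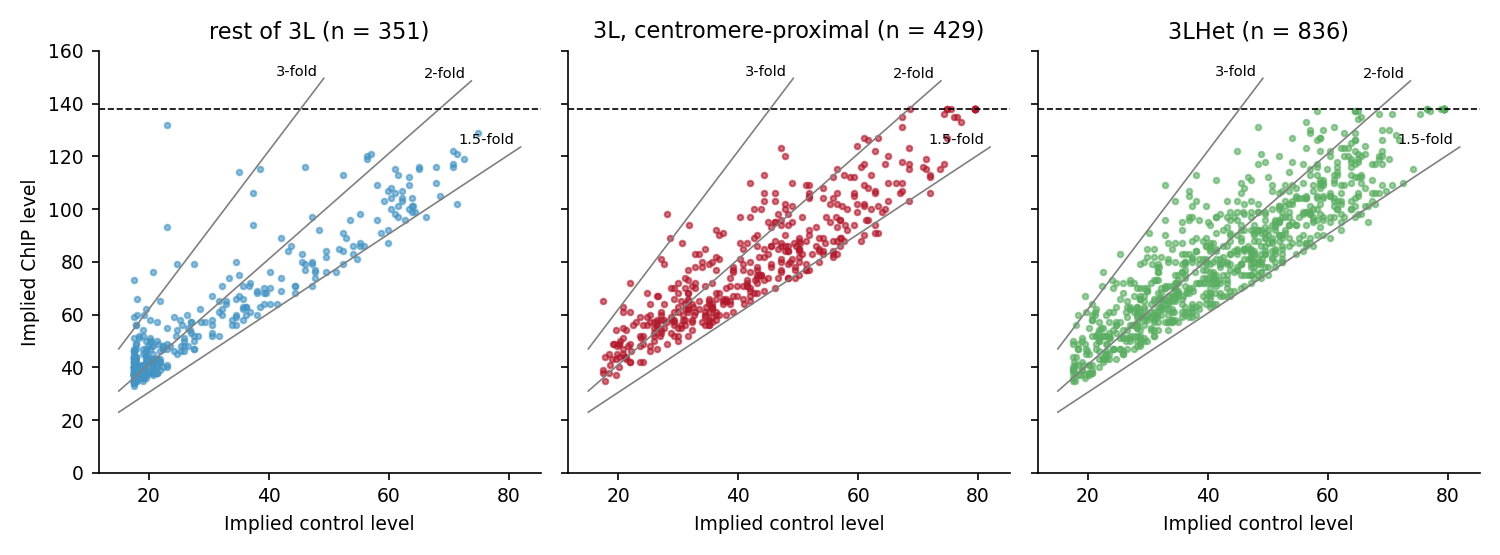
Implied ChIP level (y axis) against implied control level (x axis), both in piled-up reads on the peak caller's scale, for every peak on the rest of 3L (blue), in the centromere-proximal stretch (red) and on 3LHet (green). Grey lines mark folds of 1.5, 2 and 3, and the dashed line the highest ChIP level in the list, 138. Most blue points sit near the lowest control level, whereas the red and green points spread over the whole range and a few red and green ones lie on the dashed line.

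Enrichment was low in all 3 places. The median fold of ChIP over control in the stretch was 1.83 (quartiles 1.67 and 2.07, range 1.43 to 3.56), against 1.94 on the rest of 3L and 1.87 on 3LHet. Of the 429 peaks, 138 were at least 2-fold (32.2%, 27.8% to 36.8%), near the 35.4% of the whole list. On the rest of 3L 159 of 351 were (45.3%), a higher share by Fisher's exact test (adjusted p = 6.21e-04, odds ratio 0.573). On 3LHet 287 of 836 were (34.3%, 31.1% to 37.7%), a difference not detectable by the same exact test (adjusted p = 0.677, odds ratio 0.907). The lower share than on the rest of 3L did not hold at like control levels. Under 1.5 times the lowest, 48 of 62 peaks in the stretch reached 2-fold (77.4%) and 136 of 202 on the rest of 3L (67.3%), a difference in the other direction that did not pass the exact test (adjusted p = 0.231, odds ratio 1.66). The share fell off with the control level in all 3 places. In the stretch it was 36.4% of 176 peaks at 1.5 to 2.5 times the lowest, 18.4% of 136 at 2.5 to 3.5 times and 1 of 55 above that. On the rest of 3L it was 23.9% of 71, 12.0% of 50 and 0 of 28. Fold and control level come from the same 2 numbers of a peak, so this order is partly built into them.

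At a fold of at least 2.5, the stretch had 17 peaks (3.96%, 2.33% to 6.27%), against 6.88% in the whole list. The rest of 3L had 31 (8.83%) and 3LHet 59 (7.06%). Against 3LHet the odds ratio was then 0.543 (adjusted p = 0.0495 by Fisher's exact test), whereas the difference from 3LHet had not passed at 2-fold. A fold of 3 was reached by 4 of the 429 peaks in the stretch, 13 of the 351 on the rest of 3L and 7 of the 836 on 3LHet. The share over the whole list is not given for a fold of 3, and these differences were not tested.

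**Figure D3:**
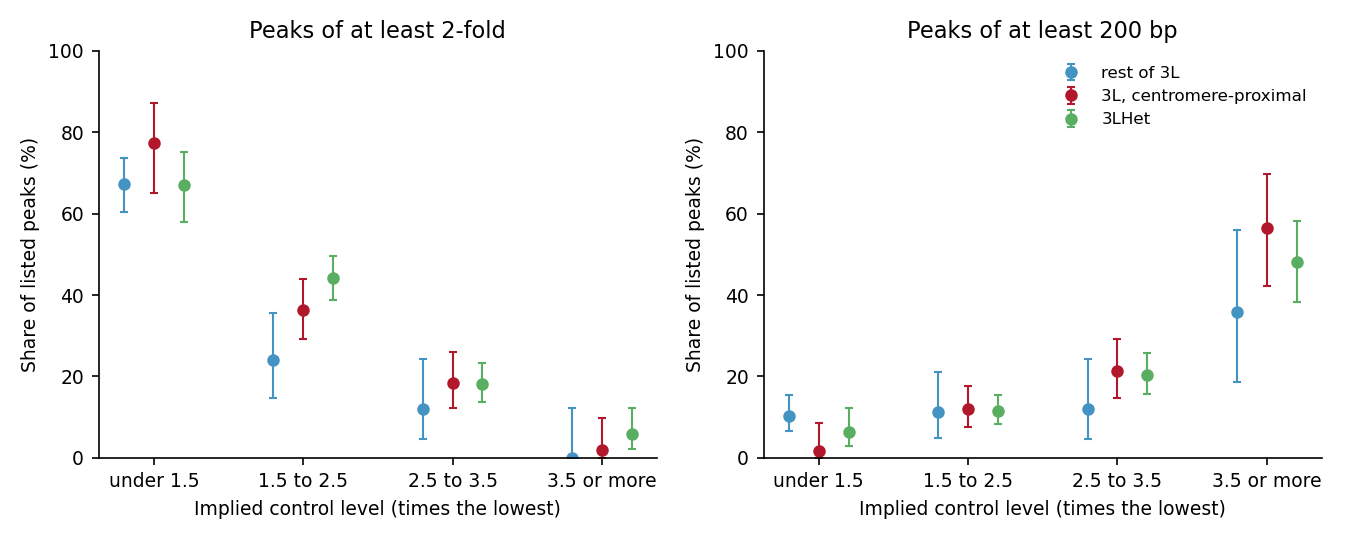
Share of listed peaks in percent (y axes) with a fold of at least 2 (left) and with a width of at least 200 bp (right), by implied control level in times the lowest (x axes), on the rest of 3L (blue), in the centromere-proximal stretch (red) and on 3LHet (green). Points are shares and bars Clopper-Pearson 95% intervals over peaks. In the stretch the share of 2-fold peaks goes from 77.4% to 1.82% and the share of wide peaks from 1.61% to 56.4% as the control level increases.

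Within the stretch both the fold and the control level varied from place to place. Over the 17 full 100 kb bins that held peaks, the median fold of a bin ranged from 1.62 to 2.17 and the median control level from 1.45 to 3.27 times the lowest. The bin with the lowest median fold started at 22.7 Mb (1.62-fold, control 3.26 times the lowest), and none of its 13 peaks reached 2-fold. The highest was at 24.3 Mb (2.17-fold, control 1.45 times), where 14 of 19 peaks did. Since fold and control level come from the same numbers of a peak, their opposite order in these bins is partly built in. Between 22.5 and 23 Mb, 1 of 22 peaks reached 2-fold. In the following steps of 0.5 Mb the counts were 30 of 117, 47 of 129 and 56 of 154.

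**Figure D4:**
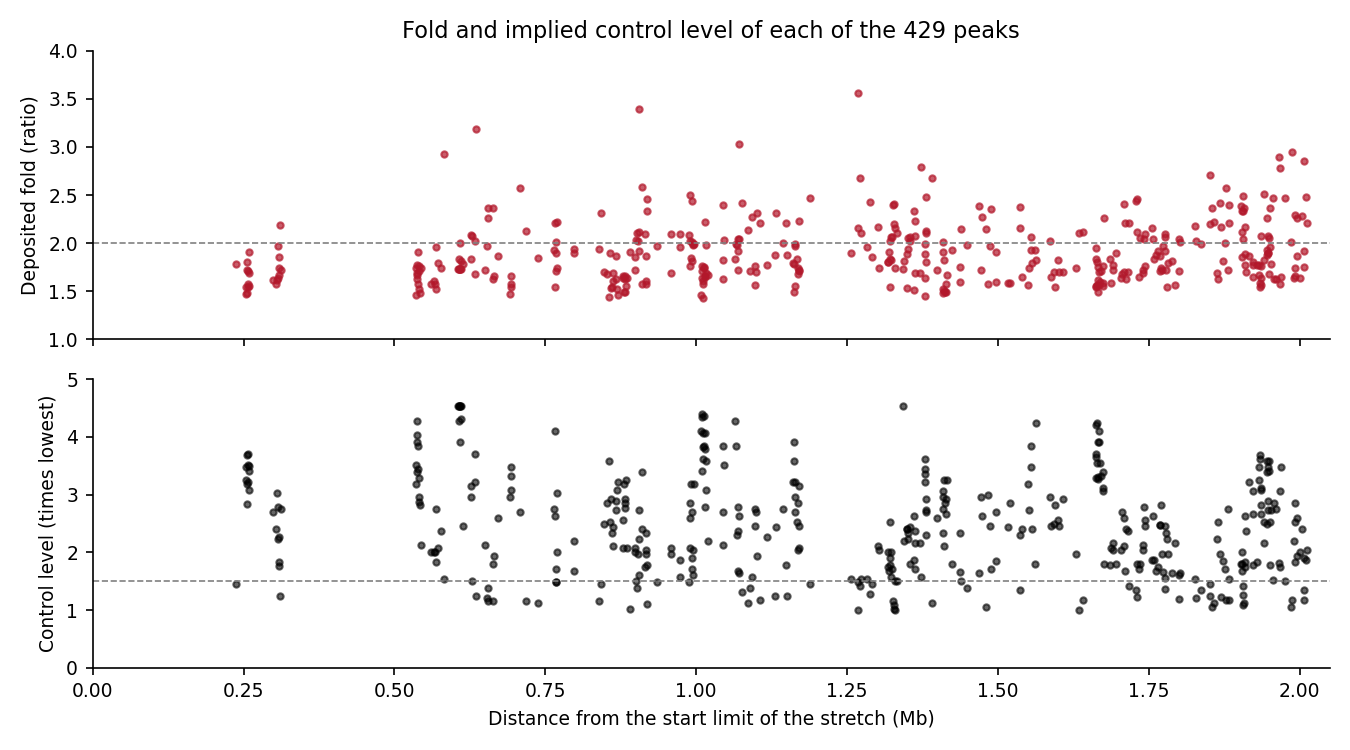
Deposited fold of ChIP over control (top, y axis) and implied control level in times the lowest (bottom, y axis) for each of the 429 peaks against distance from the start limit in Mb (x axis); dashed lines mark 2-fold and 1.5 times the lowest. The first 22 peaks form 2 columns of points, 1 of which reaches 2-fold, and the columns of high control level further on are clusters of neighbouring peaks.

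The strongest peaks were mostly narrow. The first 10 all lay beyond 23 Mb, as did 94.9% of all peaks in the stretch, so their position does not set them apart. Of the 10 with the highest −log10 q, 7 were under 100 bp wide, and their folds ranged from 2.48 to 3.56. The first was 3L 23404688 to 23404756, a 69 bp peak with a ChIP level of 98 over a control level 1.61 times the lowest, which gave 3.39-fold enrichment. Its −log10 q of 19.6 ranked 22 in the list. The second, 23208851 to 23208922, was 72 bp wide and had a fold of 2.57, with a ChIP level of 123 over a control level 2.69 times the lowest. The third, 23570957 to 23571160, was the widest of the 10, with 204 bp and a fold of 3.03. The fourth, 24465279 to 24465348, spanned 70 bp at 2.90-fold.

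The remaining 6 of the 10 had folds of 2.48 to 3.56 over control levels from the lowest to 2.73 times it. The fifth, 23880441 to 23880537 (2.48-fold), belonged to a cluster described below. The sixth, 23768307 to 23768382, had the largest fold in the stretch, 3.56, and it was one of the 3 peaks at the lowest control level, with a ChIP level of 65. The seventh and eighth, 23409978 to 23410155 and 24441057 to 24441177, had folds of 2.58 and 2.52 at control levels of 2.40 and 2.53 times the lowest. The ninth, 23134962 to 23135039, reached 3.19-fold at 1.25 times the lowest, and the tenth, 23082435 to 23082511, reached 2.92-fold at 1.54 times. By fold, the fifth was 24487008 to 24487083 with 2.95. Among the 100 peaks of the whole list with the highest −log10 q, 3 lay in the stretch, which held 7.07% of the list.

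Peaks were short in the stretch, on the rest of 3L and on 3LHet, with a tail of wide ones. The median width in the stretch was 123 bp (quartiles 88 and 175 bp, range 69 to 1015 bp), against 108 bp on the rest of 3L and 119 bp on 3LHet. Of the peaks in the stretch, 32.9% were under 100 bp, against 42.5% on the rest of 3L and 36.5% on 3LHet. The share under 100 bp over the whole list is not given, and these shares were not tested. At least 200 bp was reached by 82 of 429 peaks (19.1%, 15.5% to 23.2%), close to the 19.5% of the whole list. The share was 12.8% on the rest of 3L (45 of 351), lower by Fisher's exact test (adjusted p = 0.0386, odds ratio 1.61). On 3LHet it was 18.2% (152 of 836, 15.6% to 21.0%), which the exact test did not set apart (adjusted p = 0.843, odds ratio 1.06). Without a single cluster of 9 peaks at 23.1 Mb the odds ratio was little changed at 1.502, although it no longer passed Fisher's exact test (adjusted p = 0.0944). With peaks within 500 bp merged, which turns that cluster into 1 region, 95 of 278 regions in the stretch and 58 of 291 on the rest of 3L were wide (odds ratio 2.09, adjusted p = 4.45e-04 by Fisher's exact test). Merging lengthens regions by construction. The direction of the difference in wide peaks was not the same at every control level, although this change was not tested. Under 1.5 times the lowest it turned, with 1 wide peak of 62 in the stretch and 21 of 202 on the rest of 3L (odds ratio 0.141, adjusted p = 0.131 by the exact test). The shares were 11.9% in the stretch and 11.3% on the rest of 3L at 1.5 to 2.5 times the lowest, 21.3% and 12.0% at 2.5 to 3.5 times, and 56.4% and 35.7% above that, differences that were not tested. Of the 82 wide peaks of the stretch, 31 lay at 3.5 times the lowest or more, 29 at 2.5 to 3.5 times, 21 at 1.5 to 2.5 times and 1 below.

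Most of the 5 widest peaks were at or near the highest ChIP level of the list. That level was 138, and 93 of the 6065 peaks of the list had it. Of these, 11 lay in the stretch (2.56% of its peaks), 13 on 3LHet (1.56%) and none on the rest of 3L. The widest peak, 23509213 to 23510227, covered 1015 bp with a ChIP level of 135 over a control level 4.34 times the lowest, a fold of 1.77. The next, 23105684 to 23106556 (873 bp) and 23106658 to 23107453 (796 bp), both had a ChIP level of 138, a control level 4.53 times the lowest, which is also the highest control level in the list, and a fold of 1.73. Another such peak stood at 23842026 to 23842730 (705 bp, 1.73-fold). The fourth widest, 24168205 to 24168939 (735 bp), was at a ChIP level of 113 and 1.56-fold. At a control level over 3.91 times the lowest, a ChIP level of 138 cannot give a fold of 2. Such a control level lay behind 24 peaks of the stretch (5.59%), 7 of the rest of 3L (1.99%) and 30 of 3LHet (3.59%). The share over the whole list is not given for this level, and the difference was not tested.

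Neighbouring peaks gathered in clusters. Joining peaks with gaps of at most 500 bp turned the 429 peaks into 278 regions, of which 204 held 1 peak, 41 held 2 and 33 held at least 3. Those 33 clusters took in 143 peaks (33.3%) and had a median span of 1188 bp. On 3LHet 72 clusters held 35.9% of the peaks, and on the rest of 3L 13 clusters held 14.8%. Per Mb there were 16.4 clusters in the stretch, 28.2 on 3LHet and 0.578 on the rest of 3L. Another peak lay within 1000 bp of 65.7% of the peaks in the stretch, of 72.1% on 3LHet and of 33.9% on the rest of 3L. More clusters are bound to form where peaks are denser, and these shares were not tested.

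The cluster with the most peaks ran from 23508527 to 23516273, with 14 peaks over 7747 bp. Its peaks covered 61.9% of the span, 7 of them were at least 200 bp wide, and their control levels were 2.79 to 4.40 times the lowest. Folds ran from 1.43 to 2.22, and 1 of the 14 reached 2-fold. The smallest gap between its peaks was 79 bp and the largest 451 bp.

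The next cluster was uniform in ChIP level, at the highest of the list. From 23105684 to 23110955, 9 peaks covered 84.0% of 5272 bp with gaps of 76 to 209 bp, and all 9 had the ChIP level of 138. In 6 of them the control level was also at its highest in the list, within 0.1%. Their identical fold of 1.73 follows from these 2 highest levels. The other 3, with widths of 164, 74 and 169 bp, were compared with control levels 4.27, 3.91 and 4.30 times the lowest, for folds of 1.83, 1.997 and 1.82. None of the 9 reached 2-fold.

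The third cluster was of another kind, with narrow peaks of varied strength. From 23878638 to 23881370, 8 peaks of 72 to 171 bp covered 32.2% of 2733 bp. Their folds ran from 1.45 to 2.48, 3 reached 2-fold, and the strongest was the fifth-ranked peak by −log10 q. Control levels were 2.30 to 3.61 times the lowest. The fourth cluster, 24164595 to 24167602, and the fifth, 23035686 to 23038431, held 6 peaks each, with folds of 1.496 to 1.80 and 1.46 to 1.77 and no peak of 2-fold. The fifth was also the first group of peaks met after the longest gap of the stretch. A further 2 clusters, with shorter spans, also held 6 peaks each. The one from 24434449 to 24436463 had 1 peak of 2-fold and control levels 2.66 to 3.68 times the lowest. The other, 24404724 to 24406223, went the other way, with 5 of its 6 peaks at least 2-fold, folds of 1.86 to 2.49, and control levels only 1.09 to 2.004 times the lowest.

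**Figure D5:**
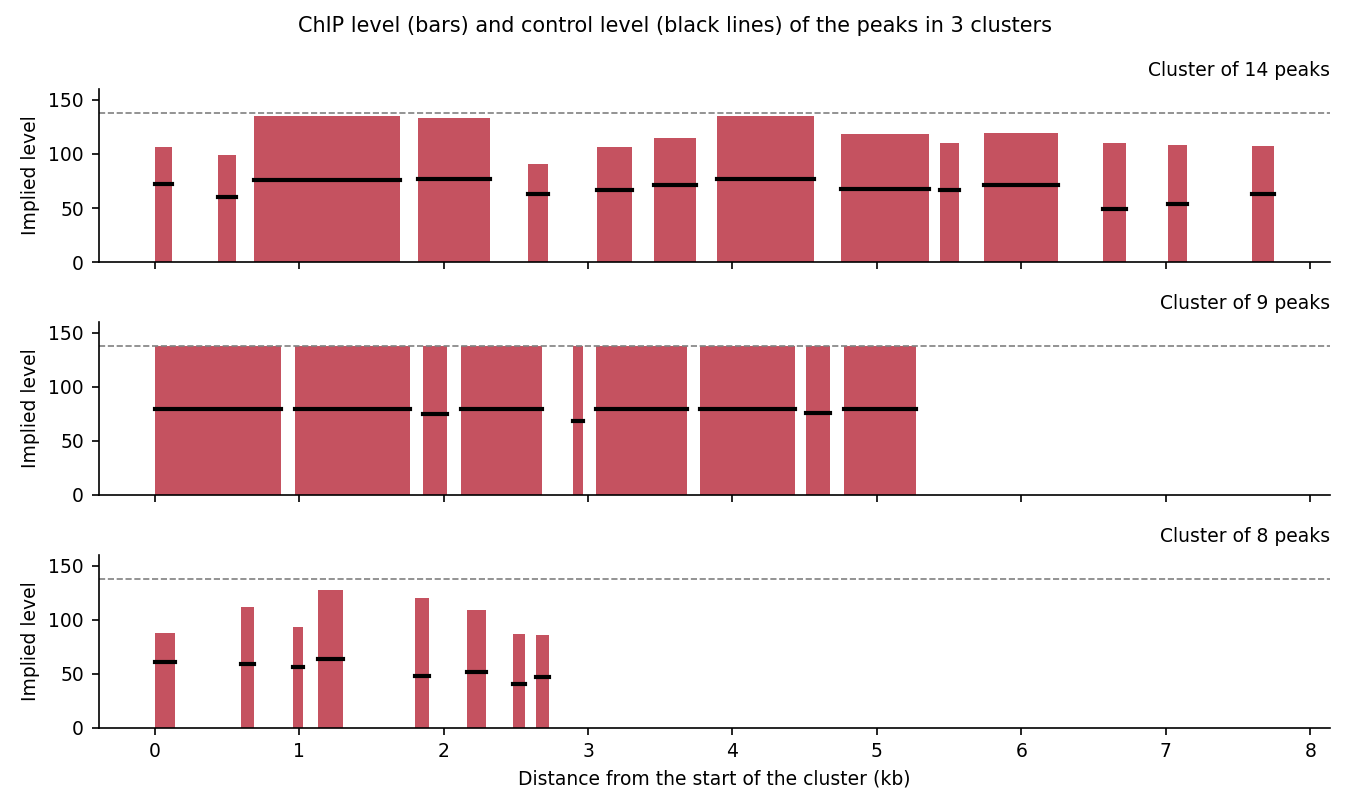
The 3 clusters with the most peaks, with distance from the start of each cluster in kb (x axis) and the implied level in piled-up reads (y axis). Bars are peaks, drawn to width, with the ChIP level as height, black lines are the control levels, and the dashed line is the highest ChIP level in the list, 138; all 9 bars of the middle cluster touch it.

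The 2 groups of peaks before 23 Mb had raised control levels and low folds. With joining extended to 1000 bp, 11 peaks between 22754588 and 22759713 formed a chain of 5126 bp at 1.47- to 1.91-fold, over control levels 2.83 to 3.71 times the lowest. A second chain of 6 peaks ran from 22805563 to 22809238, at 1.61- to 1.97-fold, over control levels 1.76 to 3.02 times the lowest. The 1 peak of these first 22 that reached 2-fold lay outside both chains.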

How the data were processed

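The deposited file is 1 narrowPeak list for the whole series, without header or library names. Bowtie2 2.2.1 is named, per the submitters' processing notes, whereas caller, settings, genome build and any pooling of libraries were, in the sources used here, not given. The deposited fold is the ratio of ChIP over control at a peak, the deposited −log10 p and −log10 q its significance, and the deposited score 10 times −log10 q without its decimals.

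ChIP and control levels were solved from fold and p with the MACS2 formula, in which fold is (ChIP + 1)/(control + 1) and p a Poisson upper tail, assumed because whole-number ChIP levels met both within 1e-04 on the −log10 p scale for 6065 of 6065 peaks. The next-best number was off by 0.0247 or more. The control level may be a regional value rather than the input at the peak.

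Peak densities were set against each other in two-sided exact binomial tests, with the last peak as the end of a sequence. Shares were set side by side in two-sided Fisher's exact tests with Benjamini-Hochberg adjustment over 6 comparisons (2-fold, 200 bp and raised control, each against 2 places), or over those that an alternative covers. Both treat peaks as units, although neighbouring peaks are not independent. Medians were not tested. Scripts were tested on simulated data. Named sites are the 10 peaks of highest −log10 q, 5 of highest fold, 5 widest, 5 largest clusters, 3 longest gaps and 3 fullest bins; other named bins, 2 clusters tied with the fifth and the 2 chains before 23 Mb were chosen after their values were seen. Members, limits and comparisons were chosen with earlier results of these data known. Python 3.11.15 and scipy 1.17.1 were used.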

Additional observations from a re-analysis of the deposited data

How the results depend on the processing

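Direction and side of the threshold held in 23 of the 34 tested alternatives. The density ratios did so in each of the 5 tried, at 3.43 to 20.1 against the rest of 3L and 0.525 to 0.822 against 3LHet. Since the limit was set with the density known, these are not independent support either. At or above the median score, the odds ratio of wide peaks turned to 0.829 against the rest of 3L, that of 2-fold peaks to 1.20 against 3LHet and that of raised control to 0.756 against 3LHet, none past the threshold. For peaks whose control was below 1.5 times the lowest, the odds ratios of wide peaks turned to 0.141 (rest of 3L) and 0.238 (3LHet) and those of 2-fold peaks to 1.66 and 1.69, none past the threshold. Merging within 500 bp turned the wide share against 3LHet to 0.729 (Fisher's exact test, adjusted p = 0.0710). Without the 9-peak cluster, an alternative chosen after seeing the data, the odds ratio of wide peaks was 1.502 against the rest of 3L and 0.994 against 3LHet. Leaving out peaks whose control puts 2-fold out of reach, also chosen after seeing the data, kept both 2-fold comparisons. A fold limit of 2.5 took the 3LHet comparison to 0.543, past the threshold. The start of the rise moved from 23 Mb to 23.75 Mb with 50 kb bins and to 23.8 Mb with the fullest interior bin as the limit, and clusters went from 33 to 18 when joined within 250 bp. The cause was not tested, beyond the fact that the control limit removes wide, low-fold peaks of the stretch and the smaller joining distance splits clusters. No paired analysis was possible because libraries have no values of their own in the list, so no library could be left out and library depth is unknown.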

Other observations

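The highest ChIP level in the list, 138, is exactly 2 times the smallest listed width, 69 bp, and the same smallest width and highest level occur in the stretch and on 3LHet. On the rest of 3L the highest ChIP level is 132. The smallest gap between neighbouring peaks is 76 bp in all 3 places. Peaks of at least 500 bp number 18 in the stretch (4.20%, Clopper-Pearson 95% interval 2.51% to 6.55%), 3 on the rest of 3L (0.855%, 0.177% to 2.48%) and 12 on 3LHet (1.44%, 0.744% to 2.49%). No share over the whole list is given at this limit, and the difference was not tested. Of these 18, 11 belong to the clusters of 14 and 9 peaks, so they are not separate observations. Peaks of at least 200 bp make up 42.4% of the covered length in the stretch, 37.3% on 3LHet and 29.3% on the rest of 3L. The median −log10 q is 3.69 in the stretch, 4.30 on 3LHet and 2.97 on the rest of 3L, the reverse of the order of the 2 parts of 3L by median fold.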
